A study of Mus musculus with 20 samples.

Results

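The 10 genes described here encode costimulatory and inhibitory receptors of the T cell surface: Cd28, Icos, Ctla4, Pdcd1, Lag3, Btla, Cd5, Cd6, Cd160 and Tigit. They were taken by gene symbol, with no threshold on a measured value, and all 10 were found among the 24391 genes counted in each sample. RNA-seq was run on 20 samples of the mouse hybridoma E2-10HA, a fusion line labelled as mature T cells. H2A.Z guide samples (n = 6) carried the lentiCRISPRv2 vector with guide RNAs to H2afv and H2afz, which encode histone variant H2A.Z, and CRISPR control samples (n = 6) carried that vector empty. Cells of both groups were selected with puromycin. NICD-ER samples carried pMIGRI Flag-NICD-ER IRES GFP, which encodes the Notch intracellular domain (NICD) joined to the hormone-binding part of the estrogen receptor. These cells were sorted and received (Z)-4-hydroxytamoxifen (4-OHT, n = 2) or ethanol (EtOH, n = 2) for 24 hours. BioNICD samples carried pLXSP-BirA, which encodes a bacterial biotin ligase, together with biotin-tagged NICD in pMY-BioNICD-IRES-GFP (wild type, n = 2) or in pMY-BioNICD-DEP-IRES-GFP (DEP mutant, n = 2), and were taken through histidinol selection and sorting. The labels do not spell out what DEP changes.

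All 6 guide samples bear the same tag, #12, in their titles, and the labels do not say what it stands for. No label names separate cultures, so the p-values may reflect technical spread alone. Of the 8 CRISPR samples numbered 3 to 6, 6 have a description that names another group than their title; groups were taken from the titles, with which the plasmid fields go. The labels fill in a treatment for CRISPR replicates 1 and 2 and leave it out for replicates 3 to 6. These samples are called set 1 and set 2, and the set was a term of the CRISPR model.

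T cells respond to antigen through the T cell receptor, and the receptors described here raise or lower that response. CD28 and ICOS deliver costimulatory signals that add to phosphoinositide 3-kinase signalling. CTLA-4 competes with CD28 for the ligands CD80 and CD86, whereas PD-1 (encoded by Pdcd1) and BTLA recruit phosphatases to their cytoplasmic tails. LAG-3 binds MHC class II, TIGIT binds the poliovirus receptor PVR, CD160 binds the BTLA ligand HVEM, and CD5 and CD6 are scavenger-receptor proteins that tune antigen receptor signalling. Many of these receptors are known to be induced on activated T cells. Notch acts in T cell development and activation through NICD, which joins the DNA-binding protein RBPJ at target genes.

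Total gene counts were 10704131 to 48238324 per sample. The summed level of 10 T cell markers was 1181 to 2415 CPM in the 20 samples (CPM is the read count scaled to a common library size), with Cd3e at 90.6 to 141 CPM over the group means. Cd8a stayed at or below 0.0162 CPM and Cd8b1 at or below 0.0402 CPM in the group means, while Cd4 averaged 108 CPM in H2A.Z guide samples and 1.67 to 5.11 CPM in the other 5 groups. The targeted genes were lower in guide samples: H2afz averaged 5.19 ± 0.44 CPM and 28.2 ± 2.50 CPM in CRISPR control samples, and H2afv averaged 36.0 ± 12.0 CPM and 127 ± 11.8 CPM in CRISPR control samples (SD, n = 6 each). Fibroblast markers (5 genes) held 567 counts in H2A.Z guide replicate 1 and 371 in CRISPR control replicate 1, against 0 to 10 in the other 18 samples. The ribosomal transcript Rn45s took over 5% of counts in H2A.Z guide replicates 5 and 6 and in CRISPR control replicate 6.

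In the mm9 annotation used for counting, Cd28 lies at chr1:60803232-60830203, with Ctla4 135.67 kb beyond it at chr1:60965869-60972676 and Icos a further 62.1 kb on at chr1:61034758-61057164. Pdcd1 lies on the minus strand at chr1:95934882-95949130. Cd5 (chr19:10792633-10813464) and Cd6 (chr19:10863829-10904548) are 50.4 kb apart on the minus strand. Lag3 is at chr6:124854377-124861723, 16.2 kb from Cd4, Cd160 is at chr3:96602686-96633274, Tigit is at chr16:43648974-43664297 and Btla is at chr16:45224450-45253008. No other annotated gene overlaps any of the 10. Values were summed over exons.

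RefSeq promoter windows (build GRCm38.p6, 250 bases before to 50 after the start) were given for 6 of the 10 genes, as 7 windows. They were searched on both strands for TGGGAA, the core of the RBPJ recognition sequence, and for GTGGGAA, which contains it. TGGGAA was found in 3 of the 7 windows, against 25.6% of all 32851 windows of that length, and GTGGGAA in 1 of the 7, against 6.38%. A match is a description of the letters and says nothing of binding. The windows of 4 genes are shown because their genes differ in how they moved with NICD: Cd160 and Ctla4 had higher levels in BioNICD wild type samples than in DEP mutant samples, Pdcd1 had lower levels, and Btla moved least among the genes called. Capitals mark TGGGAA. The Cd160 window shown (chr3:96814472-96814771, minus strand) has its match at position -14 from the start, and the base before it completes GTGGGAA. A further Cd160 window (chr3:96829302-96829601, minus strand), not shown, holds neither motif. The Btla window (chr16:45224087-45224386, plus strand) has a match at position 12. The Pdcd1 window (chr1:94052504-94052803, minus strand) and the Ctla4 window (chr1:60908775-60909074, plus strand) hold neither motif.
Cd160: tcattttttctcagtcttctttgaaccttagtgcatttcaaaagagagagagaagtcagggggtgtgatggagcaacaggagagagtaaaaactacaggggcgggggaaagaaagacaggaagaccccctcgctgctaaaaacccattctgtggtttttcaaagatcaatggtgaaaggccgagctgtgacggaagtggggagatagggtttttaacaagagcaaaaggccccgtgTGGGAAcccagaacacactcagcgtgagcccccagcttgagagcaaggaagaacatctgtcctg
Btla: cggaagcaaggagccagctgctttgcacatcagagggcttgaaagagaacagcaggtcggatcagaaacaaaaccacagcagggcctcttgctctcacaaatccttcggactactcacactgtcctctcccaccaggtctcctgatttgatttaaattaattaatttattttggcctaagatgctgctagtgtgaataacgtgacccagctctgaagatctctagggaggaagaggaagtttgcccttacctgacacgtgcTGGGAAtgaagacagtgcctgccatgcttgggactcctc
Pdcd1: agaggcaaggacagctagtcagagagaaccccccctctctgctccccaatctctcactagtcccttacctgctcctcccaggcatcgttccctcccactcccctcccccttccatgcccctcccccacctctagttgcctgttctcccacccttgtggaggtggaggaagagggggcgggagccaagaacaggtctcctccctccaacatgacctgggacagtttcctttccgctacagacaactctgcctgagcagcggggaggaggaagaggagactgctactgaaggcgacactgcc
Ctla4: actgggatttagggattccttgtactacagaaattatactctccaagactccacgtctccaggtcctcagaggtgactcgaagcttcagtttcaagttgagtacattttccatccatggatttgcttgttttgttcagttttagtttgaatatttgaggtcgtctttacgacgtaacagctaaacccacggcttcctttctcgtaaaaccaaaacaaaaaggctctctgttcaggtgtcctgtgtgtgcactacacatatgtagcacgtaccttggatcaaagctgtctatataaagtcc

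Of the 10 receptors, Pdcd1 RNA was the most abundant in every group. Its mean level per kb of exon was 530.2 CPM in H2A.Z guide samples, 143 in CRISPR control samples, 266 with 4-OHT, 503 with ethanol, 66.9 in BioNICD wild type and 356 in BioNICD DEP mutant samples. That placed Pdcd1 above 92.7% to 99.6% of the genes that had a count in the group. Cd28 and Btla followed in 5 of the 6 groups, at 3.10 to 11.5 CPM per kb, and in BioNICD wild type samples Cd28 (24.3 CPM per kb) and Cd6 (13.0) preceded Btla (12.6). Icos, Ctla4, Lag3, Cd5, Cd160 and Tigit stayed below 2 CPM per kb in all 6 groups. Icos, the inducible costimulator, had 13 counts in the BioNICD wild type samples, 1 with 4-OHT, 2 with ethanol and none in the other 3 groups. Lag3 had 9 to 16 counts per group, so that its levels could not be ordered.

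**Figure D1:**
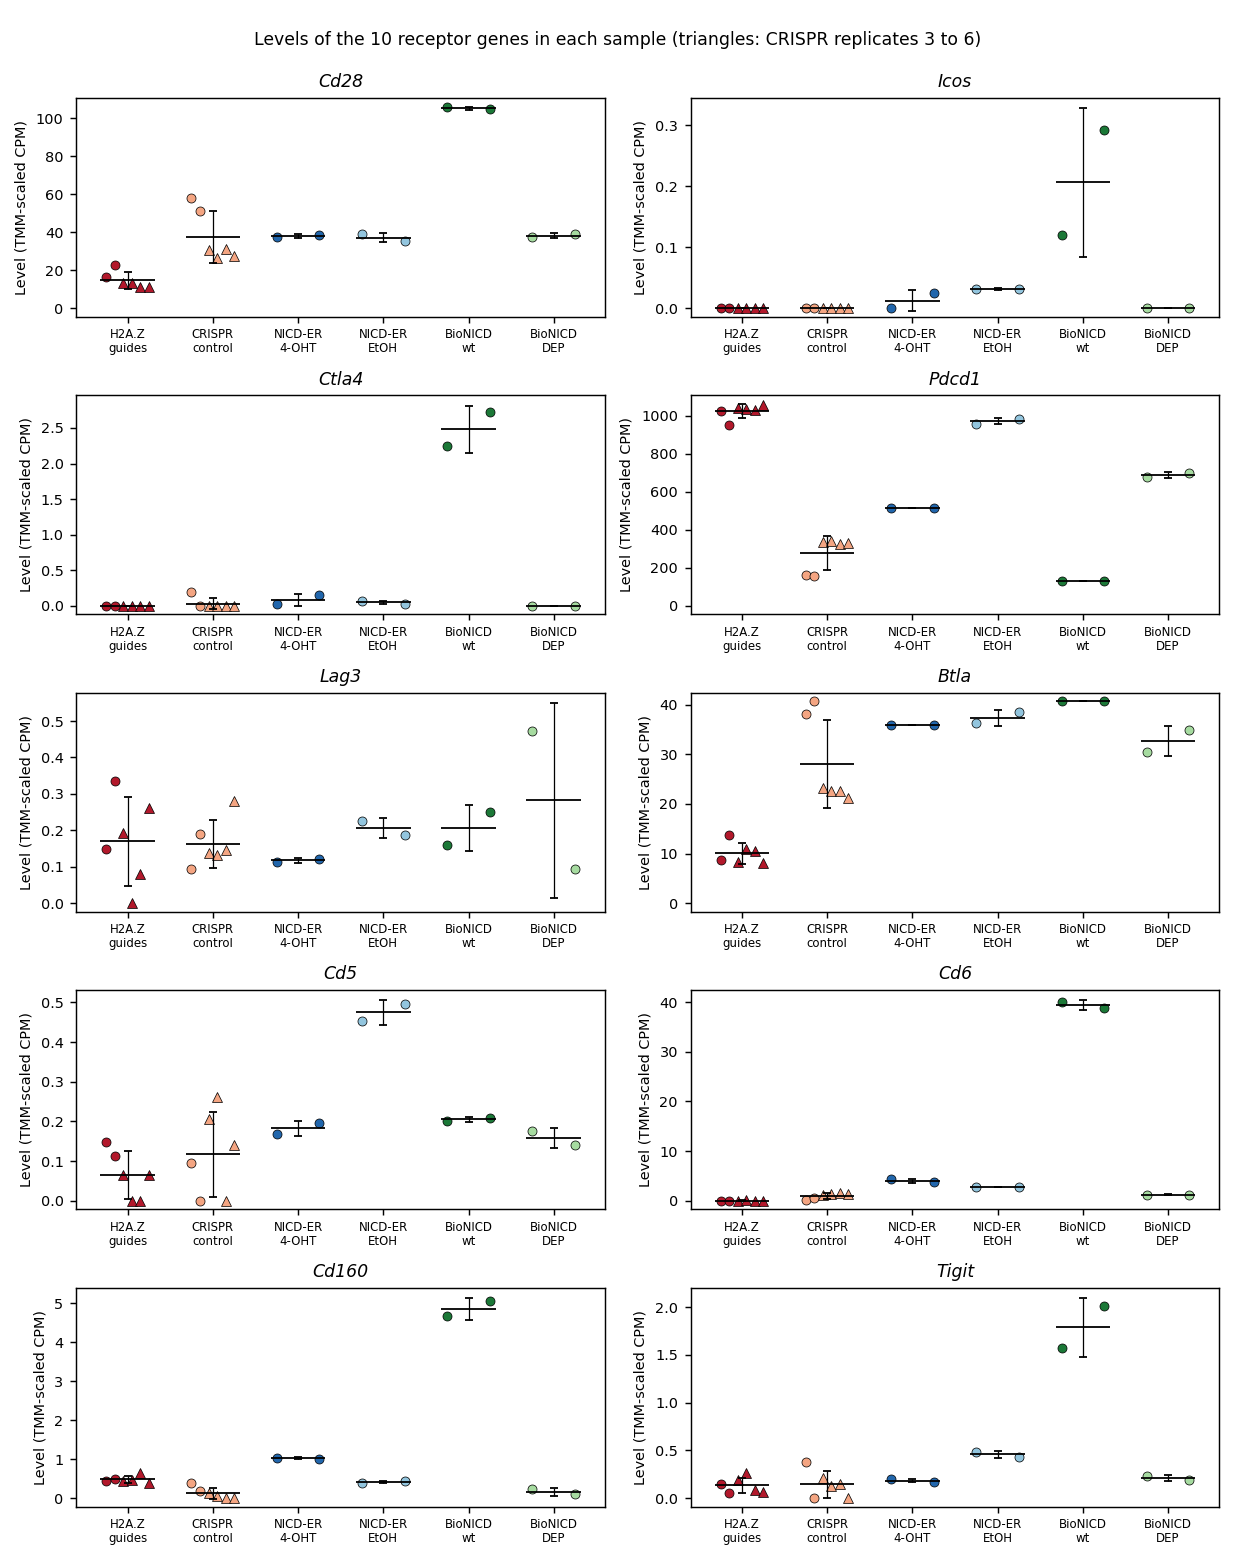
Level of each of the 10 receptor genes in each of the 20 samples, in CPM with TMM-scaled library sizes (vertical axis, linear and separate for each gene) by group (horizontal axis). Points are samples, triangles are CRISPR replicates 3 to 6, and lines with bars are the mean ± SD. Pdcd1 is at 952 to 1058 CPM in H2A.Z guide samples and 128 to 129.9 CPM in BioNICD wild type samples, while Cd6, Cd160, Ctla4 and Tigit stand highest in BioNICD wild type samples.

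**Figure D2:**
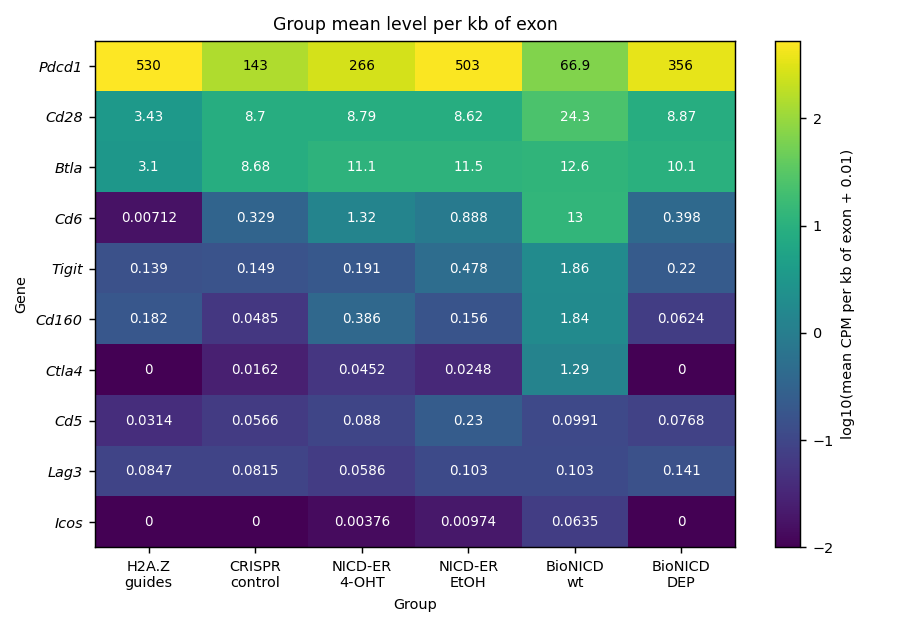
Mean level of the 10 receptor genes (rows) in the 6 groups (columns), in CPM per kb of exon, written in each cell, with color on a log10 scale. Pdcd1 leads in all 6 columns, and Cd6 ranges from 0.00712 CPM per kb in H2A.Z guide samples to 13.0 CPM per kb in BioNICD wild type samples.

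Cells with H2A.Z guides had more Pdcd1 RNA and less Cd28 and Btla RNA than CRISPR control cells. Pdcd1, the inhibitory receptor PD-1, rose 3.87-fold, Cd28 fell 2.50-fold and Btla fell 2.73-fold. These were the 3 of the 10 genes that passed the filter on low counts, and all 3 were called at an adjusted p under 0.05, where 64.5% of the 10662 genes tested were called (31.8% higher and 32.7% lower). The comparison sets cells with reduced H2afz and H2afv RNA against cells with the empty vector, and the data hold no protein levels. All guide samples share 1 tag, so an effect of lower H2A.Z cannot be told apart from another difference between the lines. In bulk RNA, fewer cells with a transcript and less of it per cell cannot be told apart. The summed level of the T cell markers was 1550 to 2415 CPM in guide samples and 1181 to 1494 CPM in control samples. Of 8 tested, 5 rose, among them Cd4 and Cd247, and 1 fell (Lck). Cd247 averaged 0.0846 CPM in control samples and passed the filter through guide samples alone, so only a rise could be called. The part of these markers in the result was not tested.

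Cd28, the main costimulatory receptor, had 11.1, 13.5 and 23.0 CPM as the lowest, median and highest of the 6 guide samples, against 26.6, 31.0 and 57.9 CPM in the CRISPR control samples. The groups did not overlap, as was so for 33.7% of all genes tested. Its log2 fold change was -1.32 (SE 0.09) with an adjusted p of 2.55e-09 in edgeR's quasi-likelihood test. Icos had 0 counts in all 12 CRISPR samples.

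Pdcd1 had 952, 1032 and 1058 CPM as the lowest, median and highest of the guide samples, against 158, 329.8 and 339 CPM in the control samples. All 6 guide samples lay above all 6 control samples. It changed by 1.95 on the log2 scale (SE 0.13, edgeR adjusted p = 1.40e-09). Btla, an inhibitory receptor that binds HVEM, had 8.16, 9.57 and 13.7 CPM in the guide samples, against 21.3, 22.9 and 40.7 CPM in the control samples, again without overlap. It changed by -1.45 on the log2 scale (SE 0.12, edgeR adjusted p = 2.46e-08). Per kb of exon, Pdcd1 stood 92.4 to 213 times above Cd28 in the guide samples, and 6.35 to 28.5 times above it in the control samples.

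The other 7 receptors were below the filter in the CRISPR samples. Cd6, a scavenger-receptor protein that binds ALCAM, had 2 counts in the 6 guide samples together, against 84 in the control samples. The pooled level was 48.0 times higher in control samples, with a 95% counting interval of 12.9 to 403. In 5 of the 6 guide samples there was no Cd6 count, and every control sample had at least 1 count (0.0940 CPM in the lowest). Cd160, which binds HVEM, had 43 counts in guide samples, against 9 in control samples, a pooled ratio of 4.18 (2.01 to 9.75). Within the sets the ratio was 1.69 (0.621 to 5.33) in set 1, an interval that includes 1, and 9.14 (2.82 to 47.0) in set 2. All 6 guide samples (0.392 to 0.641 CPM) lay above all 6 control samples (0 to 0.376 CPM). Intervals cover counting error only. Fitted without the filter, edgeR called Cd6 at a log2 fold change of -4.99 (adjusted p = 4.19e-09) and Cd160 at 1.98 (adjusted p = 0.00282). That fit did not call Ctla4 (0 counts in guide samples, 2 in control samples), Cd5 (6 in guide samples, 10 in control samples), Lag3 (16 in guide samples, 13 in control samples) or Tigit (12 in guide samples, 11 in control samples). The pooled ratio of Lag3 was 1.08 (0.486 to 2.43) and that of Tigit 0.954 (0.385 to 2.39), so that a difference within those bounds was not detectable at this depth.

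The Pdcd1 effect differed in size between the sets. Pdcd1 averaged 987 ± 50.6 CPM in guide samples and 161 ± 4.82 CPM in control samples of set 1 (SD, n = 2 each). In set 2 it averaged 1041 ± 12.6 CPM in guide samples and 333 ± 5.08 CPM in control samples (SD, n = 4 each). The control samples thus differed between the sets more than the guide samples did. Fitted within a set, the log2 fold change was 2.61 in set 1 and 1.65 in set 2. The test of the difference gave -0.97 for set 2 minus set 1 (SE 0.07, edgeR adjusted p = 4.28e-07, where 15.7% of genes were called, 8.19% with a positive and 7.49% with a negative difference). That test took the samples of a set as independent, although some replicates of set 2 were far closer to each other than to the rest, so its SE may be too small. Cd28 averaged 19.8 CPM in guide samples and 54.6 CPM in control samples of set 1, against 12.3 CPM in guide samples and 29.0 CPM in control samples of set 2. Its log2 fold change was -1.46 in set 1 and -1.23 in set 2, and the difference of 0.22 (SE 0.17) was not called (adjusted p = 0.428, edgeR). Btla changed by -1.81 in set 1 and -1.25 in set 2, a difference of 0.54 (SE 0.20, edgeR adjusted p = 0.0836). Without H2A.Z guide replicate 2 the test of the difference called both, Cd28 at 0.49 and Btla at 0.92. Cd6 had 0 counts in guide samples and 6 in control samples of set 1, and 2 counts in guide samples and 78 in control samples of set 2. In set 2 alone it passed the filter and was called at -5.00 (adjusted p = 8.97e-08, edgeR). Cd6 passed there through the control samples alone, so only a fall could be called. With H2A.Z guide replicate 1 and CRISPR control replicate 1 left out, which held the fibroblast counts, the guide effect was 1.83 for Pdcd1, -1.21 for Cd28 and -1.33 for Btla, all 3 called.

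**Figure D3:**
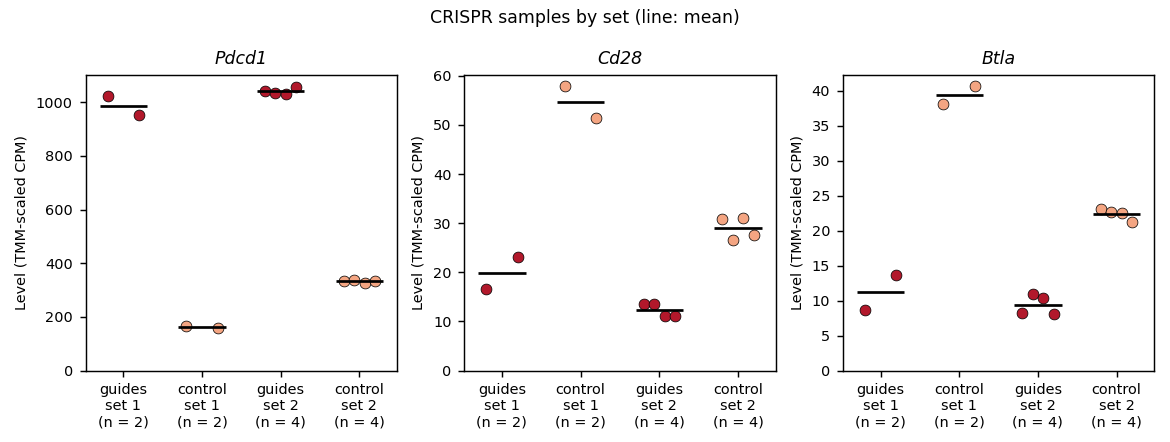
Level of Pdcd1, Cd28 and Btla in the CRISPR samples (CPM with TMM-scaled library sizes, linear axes from 0), split by set; points are samples and lines are means. Guide samples lie above control samples for Pdcd1 and below them for Cd28 and Btla in both sets, and Pdcd1 in control samples is 158 to 164 CPM in set 1 and 327 to 339 CPM in set 2.

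Given 4-OHT for 24 hours, NICD-ER cells had less Pdcd1 RNA and more Cd6 and Cd160 RNA than with ethanol. Pdcd1 fell 1.88-fold, Cd6 rose 1.49-fold and Cd160 rose 2.47-fold. The call covered 5 of the 8 receptors that passed the filter, 2 higher and 3 lower, where 36.2% of the 12499 genes tested were called (19% higher and 17.2% lower). Among the 3, Cd5 passed the filter through the ethanol samples alone (0.453 and 0.497 CPM), with at most 0.209 CPM in the other NICD samples. For Cd5 only a fall could therefore be called. The ligand 4-OHT releases proteins fused to this estrogen receptor part into the nucleus, so the comparison is meant to show NICD switched on. No cells without NICD-ER received 4-OHT, so an effect of 4-OHT itself cannot be told apart from that of NICD. How far NICD was off with ethanol was not tested. Each group held 2 samples, and the spread was estimated over the 8 NICD samples with 4 residual degrees of freedom.

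Pdcd1 had 513 and 515 CPM with 4-OHT, against 959 and 982 CPM with ethanol. The groups lay far apart relative to their spread, and the log2 fold change was -0.91 (SE 0.04, edgeR adjusted p = 1.59e-15). Cd28 had 37.3 and 38.7 CPM with 4-OHT, against 39.0 and 35.4 CPM with ethanol. Those values overlapped, and the log2 fold change of 0.03 (SE 0.05) was not called (adjusted p = 0.683, edgeR). Btla had 35.9 and 35.8 CPM with 4-OHT, against 36.2 and 38.4 CPM with ethanol, a log2 change of -0.05 (SE 0.06, edgeR adjusted p = 0.527) that was not called either. The ratio of Pdcd1 to Cd28 per kb was 29.8 to 30.8 with 4-OHT and 55.0 to 62.1 with ethanol.

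Cd6 had 4.30 and 3.74 CPM with 4-OHT, against 2.69 and 2.70 CPM with ethanol (log2 fold change 0.57, SE 0.14, edgeR adjusted p = 0.00199). Cd160 had 1.04 and 1.00 CPM with 4-OHT, against 0.388 and 0.434 CPM with ethanol (log2 fold change 1.30, SE 0.32, edgeR adjusted p = 0.00223). For both genes each 4-OHT sample lay above each ethanol sample, as was so, in either direction, for 66.1% of all genes tested. Cd5, a negative regulator of antigen receptor signalling, had 14 counts with 4-OHT, against 30 with ethanol, and Tigit had 14 counts with 4-OHT, against 29 with ethanol. These few counts gave log2 fold changes of -1.36 for Cd5 (adjusted p = 0.029) and -1.31 for Tigit (adjusted p = 0.0334) in edgeR. Both calls were lost when any of the 4 NICD-ER samples was left out, with adjusted p-values of 0.107 to 0.148 for Cd5 and 0.0847 to 0.171 for Tigit. Ctla4 had 7 counts with 4-OHT, against 3 with ethanol, and was not called (log2 fold change 0.89, SE 1.00, edgeR adjusted p = 0.537). Lag3 (9 counts with 4-OHT, against 13 with ethanol) and Icos (1 count with 4-OHT, against 2 with ethanol) were below the filter. Cd22, a B cell lectin, averaged 162 CPM with 4-OHT and 9.68 CPM with ethanol, while Ms4a1, which encodes the B cell protein CD20, stayed at or below 0.0155 CPM. Its part in the result was not tested.

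BioNICD wild type cells differed from BioNICD DEP mutant cells in most of the receptors. Pdcd1 fell 5.39-fold, while Cd28 rose 2.71-fold, Cd6 32.3-fold, Cd160 29.6-fold and Tigit 8.06-fold. Ctla4 was detected in the wild type samples and had no count in the DEP mutant samples. Of the 8 receptors that passed the filter 6 were called higher and 1 lower, where 65.6% of the 12499 genes tested were called (32% higher and 33.6% lower). Among the 6, Ctla4 passed the filter through the wild type samples alone, with at most 0.147 CPM in the other NICD samples. For Ctla4 only a rise could therefore be called. The samples compare NICD with a mutant form of it under the same vector.

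Cd28 had 105.6 and 104.6 CPM in wild type samples, against 37.3 and 39.2 CPM in DEP mutant samples. The DEP mutant and NICD-ER samples all lay between 35.4 and 39.2 CPM, and the wild type samples stood above every other sample of the series. The log2 fold change was 1.44 (SE 0.05, edgeR adjusted p = 1.09e-16). Icos had 13 counts in wild type samples, against 0 in DEP mutant samples, at least 2.25-fold higher when 3 counts over the DEP group are taken as the floor. Fitted without the filter, Icos was not called (adjusted p = 0.053, edgeR).

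Pdcd1 had 129.9 and 128 CPM in wild type samples, against 675 and 699.9 CPM in DEP mutant samples (log2 fold change -2.43, SE 0.04, edgeR adjusted p = 7.21e-24). The wild type values were the lowest of the 20 samples. The ratio of Pdcd1 to Cd28 per kb was 2.75 in both wild type samples and 39.9 to 40.5 in the DEP mutant samples. Ctla4, the inhibitory receptor closest to CD28, had 2.25 and 2.72 CPM in wild type samples (177 counts), against 0 counts in DEP mutant samples. That made it at least 30.6-fold higher with the same floor (adjusted p = 8.84e-09, edgeR). Btla had 40.6 and 40.7 CPM in wild type samples, against 30.5 and 34.9 CPM in DEP mutant samples, a rise of 1.22-fold (log2 fold change 0.29, SE 0.07, edgeR adjusted p = 0.000482). The Btla call was lost when all 20 samples were fitted together (adjusted p = 0.0743).

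Cd160 had 4.66 and 5.06 CPM in wild type samples, against 0.236 and 0.0939 CPM in DEP mutant samples, where it rested on 6 counts (log2 fold change 4.89, SE 0.34, edgeR adjusted p = 1.46e-11). The Cd160 change was 5.61 without DEP mutant replicate 1 and 4.31 without DEP mutant replicate 2, and was called in both cases. Tigit, which binds PVR, had 1.57 and 2.01 CPM in wild type samples, against 0.236 and 0.188 CPM in DEP mutant samples (log2 fold change 3.01, SE 0.42, edgeR adjusted p = 1.44e-06). Cd6 had 40.1 and 38.8 CPM in wild type samples, against 1.24 and 1.17 CPM in DEP mutant samples (log2 fold change 5.02, SE 0.13, edgeR adjusted p = 9.50e-20). In these 3 genes the wild type samples stood above all 18 other samples; the BioNICD groups did not overlap in 80.4% of all genes tested. Cd5, the neighbour and relative of Cd6, had 0.201 and 0.209 CPM in wild type samples, against 0.177 and 0.141 CPM in DEP mutant samples, and was not called (log2 fold change 0.35, SE 0.70, edgeR adjusted p = 0.679). Lag3 had 14 counts in wild type samples, against 10 in DEP mutant samples, a pooled ratio of 0.727 (0.300 to 1.83) once depth was taken into account. Markers of other cell types moved in the same comparison. Cd22 averaged 1396 CPM in wild type samples and 0.618 CPM in DEP mutant samples, Itgam 62.2 CPM and 0.135 CPM in DEP mutant samples, and Ncr1 2.17 CPM and 0 CPM in DEP mutant samples. Of the 5 B cell markers Cd22 alone exceeded 1 CPM, and Ms4a1 had 0 counts in both BioNICD groups; of the 5 myeloid and 5 NK markers Itgam and Ncr1 alone did. The summed level was 1372 to 1421 CPM in wild type samples and 0.590 to 0.892 CPM in DEP mutant samples for the B cell list, and 61.9 to 63.2 CPM in wild type samples and 0.658 to 0.767 CPM in DEP mutant samples for the myeloid list. The NK list summed to 2.38 to 2.73 CPM in wild type samples and 0.0939 to 0.177 CPM in DEP mutant samples. Their part in the result was not tested.

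**Figure D4:**
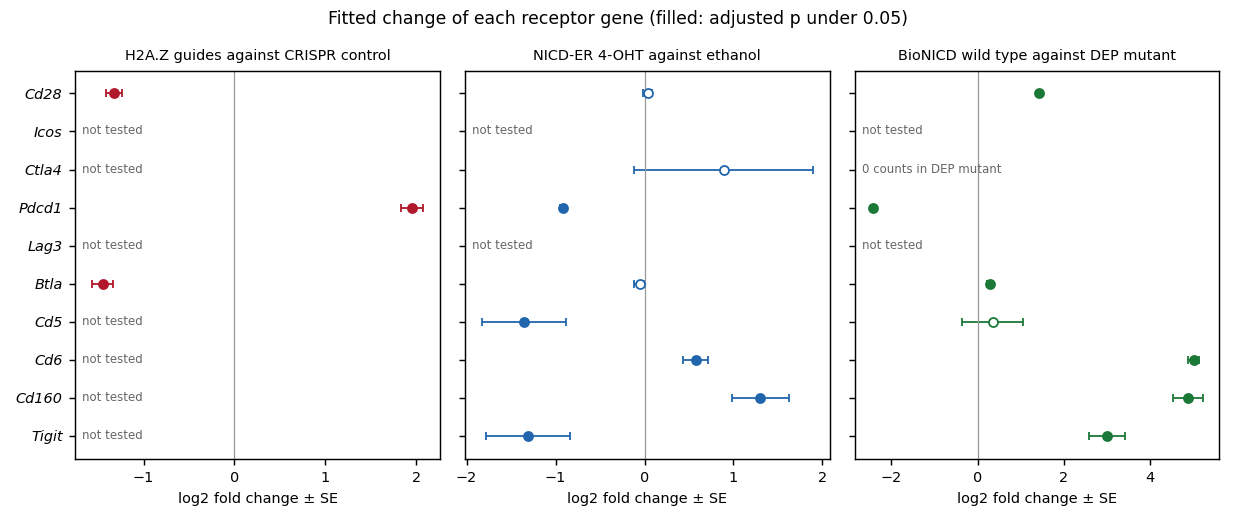
Fitted log2 fold change ± SE (horizontal axis, its range set for each panel) of the receptor genes (rows) for H2A.Z guides against CRISPR control, NICD-ER 4-OHT against ethanol and BioNICD wild type against DEP mutant. Filled points have an adjusted p under 0.05; genes below the filter are marked as not tested, and Ctla4 has no point where the DEP mutant samples had 0 counts. Pdcd1 is at 1.95, -0.91 and -2.43 in the 3 panels.

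The NICD-ER and BioNICD effects were then set against each other in the model of the 8 NICD samples, as 4-OHT minus ethanol less wild type minus DEP mutant. Of the 8 receptors tested 7 differed, where 51.5% of all genes did (26.4% with a positive and 25.1% with a negative difference). Pdcd1 fell in both systems, by less with 4-OHT (difference 1.52, SE 0.05, adjusted p = 1.24e-16). Cd6 and Cd160 rose in both, also by less with 4-OHT (differences -4.44, SE 0.22, adjusted p = 1.07e-13, and -3.59, SE 0.59, adjusted p = 2.08e-05). Cd28 and Btla, called higher in BioNICD wild type samples, were not called with 4-OHT, and the differences were -1.40 (SE 0.08, adjusted p = 5.54e-13) and -0.34 (SE 0.09, adjusted p = 0.00247). The Tigit effects had opposite signs (difference -4.32, SE 0.66, adjusted p = 7.77e-06), although its fall with 4-OHT rested on 14 counts with 4-OHT and 29 with ethanol. The difference for Ctla4 was called (adjusted p = 0.00447), but with 0 counts in DEP mutant samples its fitted size depends on the prior count. Ctla4 had passed the filter through the wild type samples alone, so only a negative difference could be called. Cd5 was not called (-1.71, SE 0.84, adjusted p = 0.0959). All these p-values are from edgeR. The 2 systems also differ in their vectors and selection, in the use of 4-OHT and in how long NICD had acted. These cannot be told apart from the form of NICD.

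Genes beside the receptors were read as a map of each locus. Neu4, a sialidase gene 9.975 kb from Pdcd1, rose in H2A.Z guide samples (1.20 CPM and 0.522 CPM in CRISPR control samples, log2 fold change 1.18, edgeR adjusted p = 0.003). The call was lost in set 1 alone (1.26, adjusted p = 0.121). Neu4 fell in BioNICD wild type samples (0.268 CPM and 1.88 CPM in DEP mutant samples, log2 fold change -2.97, edgeR adjusted p = 3.42e-07). With 4-OHT it was not called (1.04 CPM and 1.54 CPM with ethanol, log2 fold change -0.55, edgeR adjusted p = 0.117). Its 2 called changes had the direction of the Pdcd1 changes in the same comparisons. In control samples Neu4 was low, and it may have passed the filter through guide samples alone. Only a rise could then be called with H2A.Z guides, so that match in direction carries no weight. Fam174a, the tested gene on the far side of Pdcd1 at 1261 kb, was not called in any of the 3 comparisons. Slc15a3, a transporter gene 12.5 kb from Cd6, averaged 5.27 CPM in BioNICD wild type samples and 0.0235 CPM (1 count) in DEP mutant samples. Slc15a3 passed the filter through wild type samples alone, so only a rise could be called. On the other side of Cd6, Cd5 was not called there. Pdzk1, whose gene starts 0.714 kb from Cd160, rose by 0.67 (log2, edgeR adjusted p = 9.76e-05) in BioNICD wild type samples, against 4.89 for Cd160, and Rnf115 on the other side was not called (-0.06). At Lag3, which was near 0 throughout, the neighbour Cd4 rose by 4.23 in H2A.Z guide samples (adjusted p = 1.49e-11, edgeR). At Tigit, with 12 counts in guide samples and 11 in control samples, Zbtb20 at 29.7 kb rose by 3.95 in guide samples (adjusted p = 4.46e-08, edgeR). Zbtb20 averaged 0.241 CPM in control samples and passed the filter through guide samples, so only a rise could be called. The genes next to Btla, Atg3 and Abhd10, had log2 fold changes of -0.13 and -0.47 with H2A.Z guides, against -1.45 for Btla.

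Of 18 genes for ligands of these receptors and related B7 family proteins, 5 were tested in the CRISPR samples and 11 in the NICD samples. With H2A.Z guides 1 rose and 4 fell (median log2 fold change -0.56, against -0.01 over all genes, of which 64.5% were called). Cd276, which encodes the B7 family protein B7-H3 and is not an established ligand of any of the 10, had 3 counts in guide samples, against 146 in control samples, and Pvr, the TIGIT ligand, fell by 0.81. Cd274, encoding the PD-1 ligand PD-L1, rose by 0.95 beside Pdcd1. With 4-OHT 1 rose (Cd276, 1.33) and 1 fell (Pvr, -0.53), with a median of 0.03 against -0.00 over all genes, of which 36.2% were called. In BioNICD wild type samples 9 rose and none fell (median 1.69, against -0.02 over all genes, of which 65.6% were called). H2-Aa, H2-Ab1 and H2-Eb1 passed the filter through those samples alone, with means of 0.192 CPM or less in the other groups. For them only a rise could be called there, and they count among the 9. The MHC class II gene H2-Eb1, of the ligand family of LAG-3, averaged 14.2 CPM in wild type samples and had 1 count in DEP mutant samples, and H2-Ab1 had 43 counts in wild type samples, against 0.

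Of 16 further receptors of the same kinds, 4 rose and 2 fell among the 8 tested with H2A.Z guides (median 0.63), 5 rose and 4 fell among 13 with 4-OHT (median -0.03), and 10 rose and 1 fell among 13 in BioNICD wild type samples (median 1.65). The shares of all genes called in the 3 comparisons were 64.5%, 36.2% and 65.6%, and the share with H2A.Z guides, 6 of 8, was near the first of these. Entpd1, the ectonucleotidase CD39, rose in all 3 comparisons, by 3.30, 2.99 and 5.88. Havcr2, which encodes TIM-3, rose by 2.89 with 4-OHT and by 4.87 in BioNICD wild type samples, where it was 5.77 without DEP mutant replicate 2. Cd226, the activating receptor that shares PVR with TIGIT, rose by 1.16 with H2A.Z guides, and Cd2, an adhesion and costimulatory receptor, fell by 1.52. Pecam1 fell by 1.05 with 4-OHT. Cd244, a receptor of the SLAM family, averaged 29.6 CPM in BioNICD wild type samples (2139 counts) and had 0 counts in DEP mutant samples.

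Of 24 genes that act below the receptor tails, 11 rose and 10 fell among 23 tested with H2A.Z guides (median 0.09), 6 rose and 9 fell with 4-OHT (median -0.09), and 14 rose and 6 fell in BioNICD wild type samples (median 0.16), against 64.5%, 36.2% and 65.6% of all genes called in either direction. The adaptor gene Trat1 rose by 2.78 with H2A.Z guides, fell by 1.71 with 4-OHT and fell by 3.68 in BioNICD wild type samples, the order of directions seen for Pdcd1. Prkcq, the kinase PKC theta of CD28 signalling, fell by 2.20 with H2A.Z guides and rose by 3.61 in BioNICD wild type samples. Cd28 had the same directions, but Prkcq passed the filter through control samples in the CRISPR comparison, so only a fall could be called there. Ptpn6, the phosphatase SHP-1, fell by 1.39 with H2A.Z guides, and Pag1 rose by 0.72 with 4-OHT.

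Of 18 transcription factors that are known to act on receptor genes, 11 rose and 2 fell among 15 tested with H2A.Z guides (median 0.53). With 4-OHT 6 rose and 6 fell among 16 (median 0.05), and 9 rose and 5 fell in BioNICD wild type samples (median 0.59). Over all genes, 31.8% rose and 32.7% fell with H2A.Z guides, 19% rose and 17.2% fell with 4-OHT, and 32% rose and 33.6% fell in BioNICD wild type samples. With H2A.Z guides Irf4 rose by 1.87, Maf by 1.36 and Nfatc2, a calcium-regulated factor, by 1.34. In set 1 alone Irf4 was at 0.68 and not called (adjusted p = 0.207, edgeR). Irf4 rose by 3.99, Bcl6 by 3.10 and Tbx21, which encodes T-bet, by 2.47 in BioNICD wild type samples. With 4-OHT Tbx21 rose by 0.96, while Nr4a2 fell by 1.34 and Tox2 by 0.96. Nr4a1, Nr4a2, Nr4a3, Maf and Tox2 were each called higher with H2A.Z guides and lower in both NICD comparisons, as Pdcd1 was. Unlike Pdcd1, the levels of Nr4a1, Nr4a2 and Nr4a3 overlapped between guide and control samples. This group was picked out of the 18 after its values were seen, and a link to Pdcd1 was not tested. Of 10 genes that respond to costimulation, 3 rose and 3 fell among 6 with H2A.Z guides (median 0.01), 1 rose and 5 fell among 9 with 4-OHT (median -0.25), and 6 rose and 2 fell among 9 in BioNICD wild type samples (median 0.25), beside called shares of 64.5%, 36.2% and 65.6% over all genes. Cd40lg had 3 counts in H2A.Z guide samples, against 320 in control samples, Slc2a1, a glucose transporter, fell by 1.13 and Tnf rose by 1.00. Il2ra, the IL-2 receptor alpha chain, rose by 2.05 with 4-OHT, where Myc fell by 1.08 and Slc2a1 by 0.43. In BioNICD wild type samples Il2ra averaged 542 CPM and 0.377 CPM in DEP mutant samples, Ifng 54.9 CPM and 0.0939 CPM in DEP mutant samples, and Il4 had 227 counts, against 0. H2-Ab1, Cd244 and Il4, at 0 counts in DEP mutant samples, lay above the median of their list also when set at the bound that the floor gives. Cd244 and Il4 also passed the filter through BioNICD wild type samples alone, so only a rise could be called there. With H2A.Z guides, Cd276, Cd40lg and Prkcq passed through control samples alone and Entpd1 through guide samples alone. All changes given as values in these lists were called by edgeR at an adjusted p under 0.05, with groups that did not overlap.

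The receptors with the widest spread of group means were Cd6 (9.38 on the log2 CPM scale between its highest and lowest group), Ctla4 (5.73) and Cd160 (5.24), and the narrowest was Lag3 (0.72). The Ctla4 range depends on the prior count, since 2 groups had 0 counts, and the Cd6 range on 2 counts in its lowest group. Over the 20 samples, genes most like Cd6 among those with a mean of at least 1 CPM included Nlrc5 (Pearson r = 0.95) and Bcr (0.95). Those most like Ctla4 included D8Ertd82e (0.97) and Adam19 (0.96), and those most like Cd160 included Ifi203 (0.97) and Stx11 (0.96). These are descriptions over 20 samples of 6 groups, and each named gene was highest in BioNICD wild type samples, by differing amounts. Adam19 averaged 43.4 CPM in wild type samples and at most 0.0770 CPM elsewhere. Bcr averaged 133 CPM in wild type samples, 109 CPM with 4-OHT and 55.5 CPM in H2A.Z guide samples, its lowest group. Between the receptors, over the 6 group means on the log2 scale, Cd28 was most like Cd6 (r = 0.97) and least like Pdcd1 (r = -0.80).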

How the data were processed

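Ribosomal RNA was depleted from total RNA and libraries were made with a stranded kit, per the labels' protocols. The submitters' processing notes name Trimmomatic, STAR, featureCounts, DESeq2 and mm9. The deposited values are raw counts: exon reads totalled by gene in featureCounts 1.5.0 with the mm9 annotation and no strand option set, per the file headers. Antisense reads therefore cannot be told apart. Levels are CPM with TMM-scaled library sizes; levels between genes are compared per kb of exon.

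Counts were tested with edgeR 4.0.16 (R 4.3.3) by its quasi-likelihood test after filterByExpr and TMM scaling, with Benjamini-Hochberg adjustment over all genes tested and calls under 0.05. The filter kept genes that were high enough in 1 group alone. In a comparison with that group, such a gene could be called in 1 direction only. The 12 CRISPR samples were fitted with the set as a term, and the 8 NICD samples with 1 coefficient per group. SE is the size of the log2 fold change over the square root of its F statistic. Pooled ratios carry exact 95% counting intervals; the floor for 0 counts is 3 counts over the group. Alternatives were DESeq2 1.42.0, other scalings, no filter, other sample sets and each replicate left out. In 34 replicate pairs the counts differed by more than sampling noise, which alone gives a mean chi-square per gene of about 1. It was 2.75 between H2A.Z guide replicates 3 and 4 and 3.23 between 5 and 6, against 39.0 to 53.6 across those pairs. CRISPR control replicate 6 was at 34.0 to 37.1 from replicates 3 to 5, which were at 2.99 to 4.43 from each other. The model took the samples of a set as independent.

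All 10 receptors are reported. From each further list the called genes with the 3 largest changes and non-overlapping groups are named, as are the tested genes beside each receptor and the 3 genes most like the 3 receptors of widest range. The receptors and lists were chosen with earlier results of these data known. A few genes that these rules name are not reported here.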

Additional observations from a re-analysis of the deposited data

Results flagged for a closer look

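Among the 6 samples of a CRISPR group, 3 values stood apart from the other 5. Pdcd1 was 952 CPM in H2A.Z guide replicate 2 and 1023 to 1058 CPM in the other 5 guide samples; chance flags about 1 in 20 groups of measured levels. Cd6 was 0.130 CPM in H2A.Z guide replicate 4, where it had 2 counts, and 0 in the others. Ctla4 was 0.188 CPM in CRISPR control replicate 1, also from 2 counts, and 0 in the others. With the other 5 samples at 0, any count stands apart, and that chance rate does not apply to Cd6 and Ctla4.

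The effect of the H2A.Z guides on Pdcd1 differed between set 2 and set 1 by -0.97 on the log2 scale (SE 0.07, edgeR adjusted p = 4.28e-07), with the samples of a set taken as independent. Between the NICD-ER effect and the BioNICD effect, 7 receptors differed in edgeR's test: Cd28 by -1.40, Ctla4 by -8.37, Pdcd1 by 1.52, Btla by -0.34, Cd6 by -4.44, Cd160 by -3.59 and Tigit by -4.32 on the log2 scale. The adjusted p-values were 0.00447 or lower. The Ctla4 value depends on the prior count, since DEP mutant samples had 0 counts.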

How the results depend on the processing

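Of the alternative values for tested genes that the text names, 1261 kept their direction and their side of the threshold, 45 lost the call, 3 gained it and 5 changed sign. Called changes of Pdcd1, Cd28 and Btla with H2A.Z guides, of Pdcd1, Cd6 and Cd160 with 4-OHT, and of Cd28, Ctla4, Pdcd1, Cd6, Cd160 and Tigit in BioNICD wild type samples kept sign and call in every alternative run. The signs that changed belonged to values that were not called under that setting: Ptms with H2A.Z guides in set 1 only (0.087), Cd28 with 4-OHT (-0.035 to 0.10 with 1 replicate left out), Ctla4 with 4-OHT (-0.67 to 1.54), H2afz in BioNICD wild type samples (-0.18 to 0.057), and the set difference of Cd28 without the samples with fibroblast counts (-0.083, an alternative chosen after seeing the data). With H2A.Z guides, 5 receptors were called without the filter and 5 with all 20 samples in 1 model, since more were tested, and set 1 alone gave 2948 called genes and set 2 alone 7756, the cause of which was not tested. With 4-OHT, 3 receptors were called by DESeq2, 3 with all 20 samples in 1 model (2218 genes) and 3 with any replicate left out; Cd5 and Tigit were those at stake, and the cause was not tested. For the set difference, 2 receptors were called without the filter and 447 genes without the 3 samples rich in Rn45s, and leaving out 1 replicate gave 851 (without CRISPR control replicate 1) to 4062 genes (without H2A.Z guide replicate 2) and 1 to 3 receptors. The Ctla4 difference between NICD-ER and BioNICD lost its call without ethanol replicate 1 (adjusted p = 0.0531, edgeR). Fits with the replicate number as a replicate block gave 6412 called genes for H2A.Z guides, 4991 for 4-OHT, 8371 for BioNICD, 1222 for the set difference and 6717 for NICD-ER against BioNICD, with no change in the receptors called; same-numbered samples did not deviate together throughout (r = -0.12 to 0.23), so the numbers were not taken to pair the samples. Icos, with 0 to 13 counts per group, and Lag3, with 9 to 16, allow only large differences to be detected at this depth.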
